A study of Gallus gallus with 6 samples.

Results

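The genes described here are 10 regulators of endothelium and early blood, namely KDR, TEK, CDH5, CLDN5, FLI1, ERG, TAL1, LMO2, GATA2 and RUNX1. They were chosen by name, and each was matched by its chicken RefSeq symbol to an NCBI Gene ID among the 24098 genes of the deposited files. All 10 were found, and all 10 reached an average of 1 FPKM across the libraries, the condition for entering the test, as did 13311 genes in total. FPKM is the number of reads on a gene per kilobase of its model and per unit of sequencing depth, so it allows levels of different genes to be compared.

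RNA was taken from whole embryos of the chicken, Gallus gallus, which the labels place at Hamburger-Hamilton stage 10, in 3 control libraries and 3 libraries from embryos treated with zinc oxide nanoparticles, called ZnO below. The labels give no strain, dose or route, and do not say how many embryos went into a library, so the p-values measure a spread between libraries that may be technical in part. The stage labels carry time windows that begin at 34 hours in every library. Their ends are 39, 40 and 41 hours in the control group but 42, 43 and 44 hours in the ZnO group, so a difference in age and the treatment cannot be told apart if the windows are measured ages.

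Endothelial and blood cells arise together from mesoderm in the early avian embryo, in the blood islands of the yolk sac and in the vessels that form within the body. Signalling through KDR, a receptor for vascular endothelial growth factor (VEGF), starts this programme. ETS factors, bound with TAL1, GATA2 and LMO2 at shared enhancers, keep it running, and RUNX1 is required where blood cells bud from endothelium in the mouse. Whole-embryo RNA holds these cells as a minority beside neural tube, somites, heart, ectoderm and endoderm. In such bulk samples, fewer cells of a type and less RNA per cell cannot be told apart.

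All 10 genes had reads in each library, at levels that spanned a wide range. The mean of LMO2 in controls was 234 ± 27.7 FPKM (SD, n = 3), which placed it at rank 318 of the genes tested. CDH5 followed at 66.8 ± 13.8 FPKM, GATA2 at 53.4 ± 8.01 FPKM and CLDN5 at 42.4 ± 2.30 FPKM. LMO2 exceeded CDH5 in 6 of 6 libraries, with no overlap of their ranges. CDH5 exceeded GATA2 in 4 of 6 libraries, and GATA2 exceeded CLDN5 in 5 of 6, so the order of these neighbours was not fixed across libraries. TAL1 (25.4 ± 1.09 FPKM) and KDR (25.1 ± 3.06 FPKM) were alike in controls, with TAL1 above KDR in 1 of 3. TEK at 18.1 ± 3.08 FPKM lay below KDR in 6 of 6 libraries. It lay above FLI1 (11.8 ± 2.83 FPKM) in 5 of 6. ERG (5.46 ± 0.377 FPKM) and RUNX1 (0.909 ± 0.383 FPKM) came last, each separated from its neighbour in every library.

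**Figure D1:**
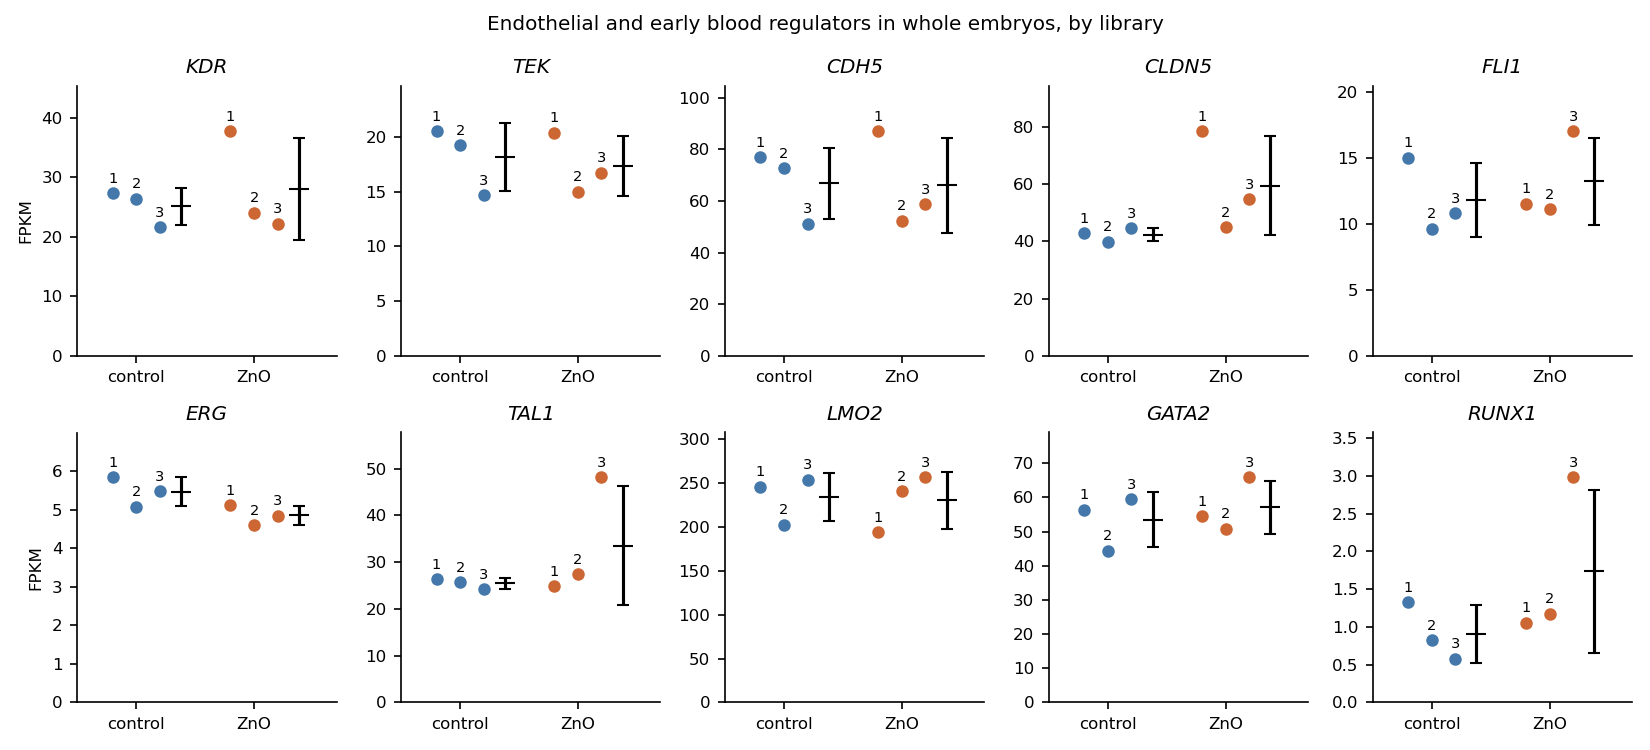
FPKM of each gene (vertical axis, from 0, own scale per panel) in the 3 control and 3 ZnO libraries, numbered by replicate, with the group mean and SD beside the points. CLDN5 is the gene whose groups do not overlap, and TAL1 and RUNX1 have 1 high library, ZnO 3.

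No gene of the 10 passed the test between ZnO and control embryos. In limma on log2(FPKM + 1), with Benjamini-Hochberg adjustment over all 13311 genes, 0 of 10 had an adjusted p under 0.05, against a background of 0% of all genes tested, and the lowest adjusted p of the 10 was 0.920, for CLDN5. At an unadjusted p under 0.05 there were 0 of 10, against 5.66% of all genes, and limma-voom on the reads behind the FPKM also called 0 of 10. By direction of the mean log2 level, 6 were higher and 4 lower in ZnO, where 43.9% of all genes tested were higher. RUNX1, among the 6, reached the filter only through its level in ZnO 3. The median log2 fold change of the 10 was 0.11 (0.01 without ZnO 3), and that of all genes tested was -0.03. All ZnO libraries lay above all controls for 1 of the 10, CLDN5, against 5.6% of all genes tested, and below them for 0 of 10, against 5.89%. An exact permutation test of 3 against 3 libraries cannot give a two-sided p below 0.1.

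KDR and TEK encode the receptor tyrosine kinases of the set. KDR (gene ID 395323) stood at 27.3, 26.4 and 21.6 FPKM in controls 1 to 3, against 37.8, 24.1 and 22.2 FPKM in ZnO libraries 1 to 3. ZnO 1 was the highest library, at 1.38 times the next, while ZnO 2 and ZnO 3 lay within the range of the controls. The log2 fold change, taken as the ZnO mean less the control mean of log2(FPKM + 1), was 0.12 ± 0.22 SE with a 95% interval of -0.38 to 0.62. Without ZnO 1 it turned to -0.11. TEK (gene ID 427368), the receptor for angiopoietins, had 20.5, 19.2 and 14.7 FPKM in the control group and 20.4, 15.0 and 16.7 FPKM in ZnO. The groups covered almost the same range, with a log2 fold change of -0.06 ± 0.18 SE (interval -0.47 to 0.36), which was positive without control 1 (0.035) or ZnO 2 (0.037). Neither receptor passed the test (limma adjusted p = 0.975 for KDR and 0.984 for TEK).

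CDH5 and CLDN5 encode proteins of the contacts between endothelial cells, VE-cadherin of adherens junctions and a claudin of tight junctions. CDH5 (gene ID 374068) was at 76.8, 72.6 and 51.1 FPKM in the control group and at 87.1, 52.3 and 58.7 FPKM in ZnO. Each group held a high and a low end, and the group means differed by less than the SD of either group (log2 fold change -0.03 ± 0.24 SE, interval -0.59 to 0.53). CDH5 changed sign without control 1 (0.080), control 2 (0.040), ZnO 2 (0.12) or ZnO 3 (0.036). CLDN5 (gene ID 374028) had 42.8, 39.9 and 44.5 FPKM in the control group and 78.6, 45.0 and 54.8 FPKM in ZnO. The lowest ZnO library, ZnO 2, lay just above the highest control, and ZnO 1 stood 1.43 times above the next library. The log2 fold change of CLDN5 was 0.44 ± 0.21 SE (interval -0.05 to 0.93), with an exact permutation p of 0.1, the smallest possible. Without ZnO 1 it was 0.22. In ZnO 1 the CLDN5 reads numbered 2516, against 1275 to 1780 in the other libraries. The ratio of CLDN5 to CDH5 was 0.557 and 0.550 in control 1 and control 2, 0.871 in control 3, and 0.861 to 0.933 in the ZnO libraries, so control 3 resembled ZnO by this measure.

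FLI1 and ERG encode related ETS transcription factors that act in endothelium and in blood stem cells. FLI1 (gene ID 419723) had 15.0, 9.63 and 10.8 FPKM in the control group and 11.5, 11.1 and 17.0 FPKM in ZnO. Control 1 and ZnO 3 were the high libraries and the groups overlapped (log2 fold change 0.15 ± 0.22 SE, interval -0.35 to 0.65). Without ZnO 3 it was -0.035. ERG (gene ID 374146) had 5.83, 5.08 and 5.47 FPKM in the control group and 5.11, 4.60 and 4.84 FPKM in ZnO. It was the steadiest of the 10, with a highest library at 1.27 times the lowest where the median gene tested had 1.65. Control 2 and ZnO 1 crossed by a narrow margin, and the log2 fold change was -0.14 ± 0.13 SE (interval -0.45 to 0.16). Its sign was the same without each library in turn (-0.19 to -0.10). FLI1 exceeded ERG in each library, by 1.90-fold to 2.57-fold in controls and 2.26-fold to 3.52-fold in ZnO. In the RefSeq gene order of assembly GRCg7b, FLI1 lies beside ETS1 and ERG beside ETS2, both further ETS factors. ETS1 and ETS2 had higher levels in controls, at 52.7 ± 7.83 and 19.4 ± 2.58 FPKM, and 49.6 ± 5.50 and 20.4 ± 1.51 FPKM in ZnO. How reads shared by such paralogs were counted is not stated in the labels or notes.

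TAL1, LMO2 and GATA2 encode proteins that act in 1 complex, in which TAL1 is the bHLH factor, GATA2 the zinc finger factor and LMO2 the adaptor that binds no DNA itself. TAL1 (gene ID 396298) gave 26.3, 25.8 and 24.2 FPKM in the control group and 24.9, 27.5 and 48.1 FPKM in ZnO. The 3 controls, ZnO 1 and ZnO 2 lay close together, and ZnO 3 stood 1.75 times above the next library. Reads on TAL1 numbered 1523 in ZnO 3, with an exact Poisson 95% interval of 1447 to 1601, against 776 to 888 in the other libraries. This interval covers counting error alone and is no test of ZnO 3, which was picked as the highest library. The log2 fold change was 0.32 ± 0.24 SE (interval -0.23 to 0.88) and was 0.038 without ZnO 3. LMO2 (gene ID 374129) had 246, 202 and 254 FPKM in the control group and 194, 240.5 and 256 FPKM in ZnO. Its low libraries were control 2 and ZnO 1, and the groups overlapped almost fully (log2 fold change -0.02 ± 0.18 SE, interval -0.45 to 0.40, and 0.093 without ZnO 1). GATA2 (gene ID 416018) had 56.4, 44.4 and 59.5 FPKM in the control group and 54.6, 50.8 and 65.8 FPKM in ZnO. ZnO 3 was its highest library and control 2 its lowest (log2 fold change 0.10 ± 0.18 SE, interval -0.31 to 0.51, and -0.010 without ZnO 3). The ratio of GATA2 to LMO2 kept within 0.211 and 0.281 over the 6 libraries. The ratio of TAL1 to LMO2 was 0.188 in ZnO 3 and 0.0955 to 0.128 in the others.

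RUNX1 (gene ID 396152), the least abundant of the 10, had 1.33, 0.820 and 0.578 FPKM in the control group and 1.06, 1.17 and 2.98 FPKM in ZnO. ZnO 3 was the high library at 2.24 times the next, control 1, and the other ZnO libraries lay within the control range. Its control mean was under the filter of 1 FPKM, and ZnO 3 raised its overall mean above it. The reads on RUNX1 numbered 318 in ZnO 3 (exact Poisson 95% interval 284 to 355) and 140 in control 1 (118 to 165). These intervals cover counting error alone. They are no test of ZnO 3, which was picked as the highest library and brought RUNX1 past the filter. The log2 fold change of RUNX1 was 0.47 ± 0.29 SE (interval -0.20 to 1.14), and 0.17 without ZnO 3. With a pseudocount of 0.1 it was 0.78. Among its paralogs, RUNX2, a factor of bone formation, was more abundant in controls (3.83 ± 0.284 FPKM) and RUNX3 less (0.442 ± 0.213 FPKM).

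**Figure D2:**
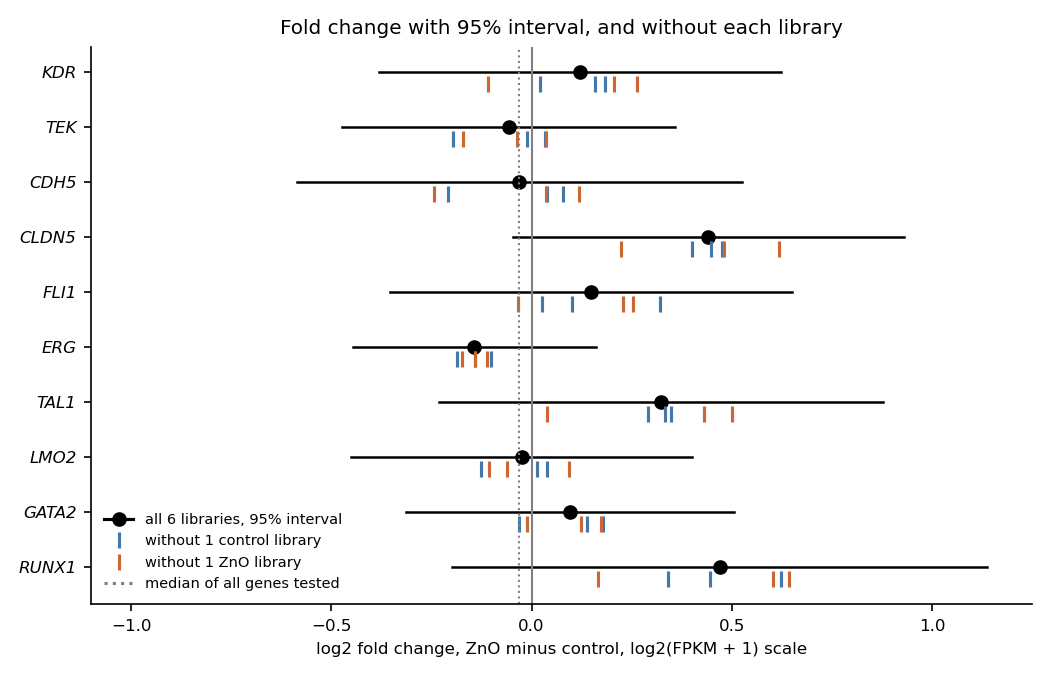
Horizontal axis: log2 fold change of each gene (ZnO mean less control mean of log2(FPKM + 1)), with its 95% interval over 6 libraries, and the value without each library as a short stroke. All 10 intervals include 0, and the strokes of 6 genes lie on both sides of 0.

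The 10 genes differed among themselves in which library was high. KDR, CDH5 and CLDN5 were highest in ZnO 1, and TAL1, LMO2, GATA2, RUNX1 and FLI1 were highest in ZnO 3, while TEK and ERG were highest in control 1. The lead over the next library was smallest for TEK and LMO2, at 1.01 times each. TEK had 20.5 FPKM in control 1 and 20.4 FPKM in ZnO 1, and LMO2 had 256 FPKM in ZnO 3 and 254 FPKM in control 3. Over all genes tested, 24.9% were highest in ZnO 1 and 22% in ZnO 3. By a margin of at least 1.5 times the next library, ZnO 3 was highest for TAL1, and for 1.06% of all genes tested. The margin was not fixed in advance, so this share describes where TAL1 lay and is no test. RUNX1 also passed this margin, but it entered the test only through ZnO 3. It is therefore read neither against that share nor against the 22%. The ratio of TAL1 to KDR was 0.964, 0.976 and 1.12 in controls, 0.658 in ZnO 1, 1.14 in ZnO 2 and 2.17 in ZnO 3. The 2 outer values of this ratio therefore both came from treated libraries. The ratio of CDH5 to KDR lay between 2.17 and 2.81 in all 6 libraries.

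The genes beside TAL1 and KDR were read for comparison. In the RefSeq order TAL1 lies between PDZK1IP1 and STIL, which were at 60.4 and 4.03 FPKM in ZnO 3, within the range of the other libraries for STIL (3.70 to 5.53 FPKM) and below control 2 for PDZK1IP1 (63.9 FPKM). KDR lies beside KIT, the receptor for stem cell factor, which was at 2.69 to 3.53 FPKM in controls, 4.62 in ZnO 1, 2.41 in ZnO 2 and 3.03 in ZnO 3. KIT was thus highest in the same library as KDR. SRD5A3, the neighbour of KDR on the other side, was highest in control 1. It had 6.10, 5.91 and 4.15 FPKM in the control group and 5.48, 4.46 and 3.54 FPKM in ZnO. The genes with a pattern nearest to that of KDR over the 6 libraries, by the root mean square difference of centred log2 levels among 9571 genes with at least 5 FPKM, were UNC5B (0.042), TIE1 (0.047) and CYP2J21 (0.049). TIE1 is a receptor of the same family as TEK, and had 26.1, 26.3 and 20.3 FPKM in the control group and 35.4, 21.9 and 19.9 FPKM in ZnO. UNC5B, a netrin receptor, had 61.6 FPKM in ZnO 1 and 34.8 to 44.6 FPKM elsewhere.

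Of 50 further endothelial genes listed, 40 were tested. By mean, 15 were higher and 25 lower in ZnO, where 43.9% of all genes tested were higher. Their median log2 fold change was -0.07, against -0.03 for all genes. The median was -0.26 without ZnO 1 and 0.04 without ZnO 3. In limma, 0 of the 40 passed, and 2 had an unadjusted p under 0.05, where 5.66% of all genes tested did. All ZnO libraries lay above all controls for 4 of the 40, where they did for 5.6% of all genes tested. The 4 were SHANK3, EFNB2, FLT4 and the transcription factor gene MEF2C. The reverse held for 0 of the 40, against 5.89%. SHANK3, a scaffold protein gene, had 22.3, 23.4 and 22.0 FPKM in the control group and 38.3, 32.9 and 34.4 FPKM in ZnO. The groups lay well apart and the log2 fold change was 0.62 ± 0.13 SE, but the limma adjusted p was 0.746. EFNB2, an ephrin ligand of arterial endothelium, had 14.2 ± 1.30 FPKM in the control group and 20.1 ± 3.10 FPKM in ZnO (SD, n = 3), and FLT4, the receptor for VEGFC, had 21.9 ± 2.18 and 27.6 ± 3.38 FPKM. Neither passed (limma adjusted p = 0.827 and 0.928). ECSCR, an endothelial surface protein gene, overlapped between groups at 13.0 ± 2.80 and 10.8 ± 2.28 FPKM.

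Among the further endothelial genes, the outer libraries on both sides were treated ones. ZnO 1 was the highest library for 32 of the 40, where it was highest for 24.9% of all genes tested. ZnO 3 was the lowest for 21 of the 40, where it was lowest for 22.2% of all genes. Relative to the mean of the libraries, their median log2 level was 0.13, 0.11 and -0.17 in controls and 0.37, -0.17 and -0.32 in ZnO 1, 2 and 3. Of the 10 regulators, 3 were highest in ZnO 1, namely KDR, CDH5 and CLDN5, which is near that 24.9%. TEK and ERG were highest in control 1, and FLI1, TAL1, LMO2, GATA2 and RUNX1 in ZnO 3. For TEK, control 1 was nearly level with ZnO 1, and for LMO2, ZnO 3 was nearly level with control 3. ZnO 1 also stood apart in its FPKM total of 480047, where the other libraries had 531480 to 559992, at depths of 18208501 to 19843561 reads. The median ratio of a gene to its mean over the libraries differed little, at 0.975 in ZnO 1 and 0.981 to 1.02 in the others. The part of the lower total in the endothelial levels was not tested.

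**Figure D3:**
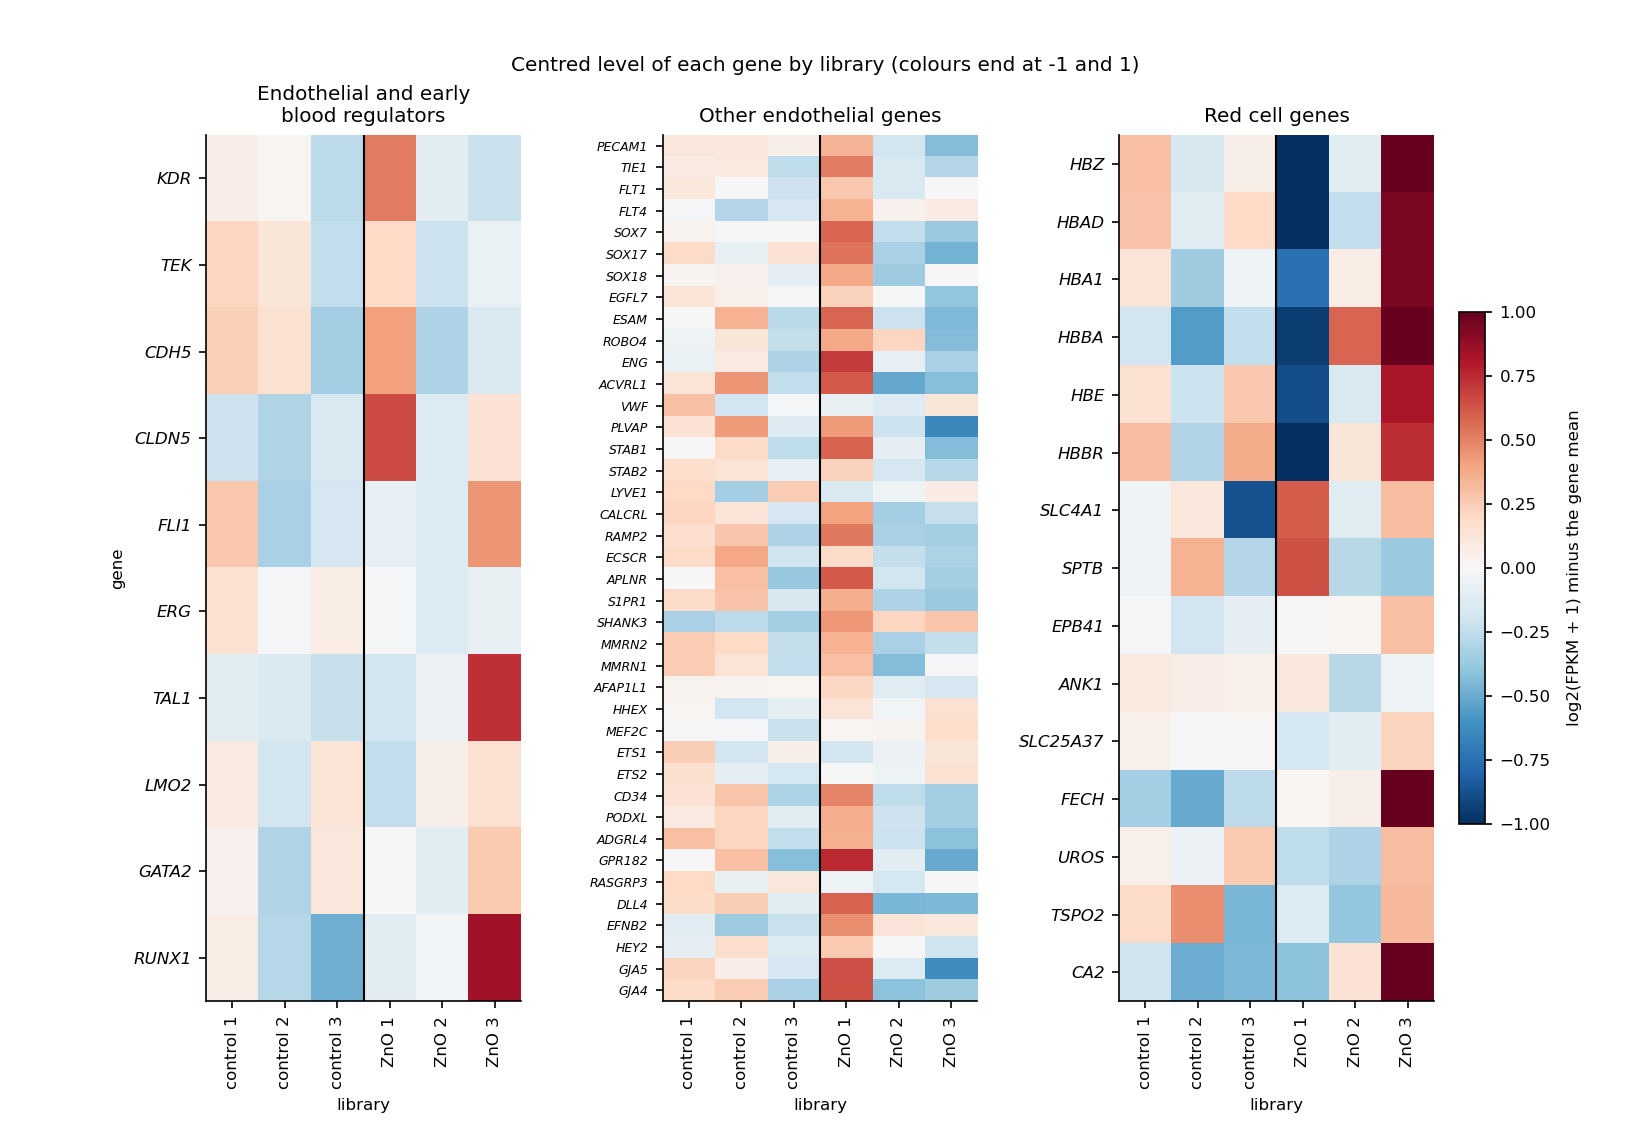
Log2(FPKM + 1) of each gene (rows) less its mean over the 6 libraries (columns), for the 10 regulators, the 40 other endothelial genes tested and the 15 red cell genes tested, with controls left of the line. ZnO 1 is red for 32 of 40 endothelial genes as their highest library, and ZnO 3 is the highest library for 11 of 15 red cell genes.

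Vascular ligands and co-receptors, most of which act on KDR or TEK, had 11 genes tested. By mean, 3 were higher and 8 lower in ZnO, where 43.9% of all genes tested were higher. Their median log2 fold change was -0.18 (-0.42 without ZnO 1 and -0.05 without ZnO 3), with 0 past the threshold in limma. ANGPT2, the angiopoietin that opposes or weakly activates TEK, had 24.6, 29.1 and 22.7 FPKM in the control group and 24.3, 14.7 and 13.9 FPKM in ZnO. ZnO 1 lay within the controls and the other ZnO libraries below them (log2 fold change -0.54 ± 0.22 SE, limma adjusted p = 0.864). VEGFC, a ligand of FLT4 and KDR, had 16.6 ± 2.75 FPKM in the control group and 12.4 ± 3.44 FPKM in ZnO, and VEGFD had 9.78 ± 0.762 and 7.56 ± 2.69 FPKM. APLN, the ligand of the endothelial apelin receptor and part of this list although it binds neither KDR nor TEK, had 15.5 ± 3.57 and 11.9 ± 2.69 FPKM. In each of these the groups overlapped, with limma adjusted p of 0.939 for VEGFC and 0.943 for the other two.

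Partners of the TAL1 complex and other blood transcription factors were higher by mean in ZnO for 11 of 17 tested. Of all genes tested, 43.9% were higher. The median log2 fold change of the 17 was 0.12, with 0 past the threshold in limma. TCF3 encodes an E protein that pairs with TAL1, and had 26.6, 21.7 and 29.1 FPKM in the control group and 31.9, 35.1 and 40.7 FPKM in ZnO. LDB1 encodes the protein that LMO2 links to the complex, and had 71.7, 75.2 and 76.7 FPKM in the control group and 84.6, 85.6 and 93.4 FPKM in ZnO. These were the 2 of 17 genes with each ZnO library above each control, where 5.6% of all genes tested were so placed. The reverse held for 0 of 17, against 5.89%. The log2 fold changes of TCF3 and LDB1 were 0.46 ± 0.17 SE (limma adjusted p = 0.861) and 0.23 ± 0.14 SE (limma adjusted p = 0.943). GFI1B, a transcriptional repressor that acts within the red cell and platelet lineages, was at 0.915 ± 0.779 FPKM in the control group and 2.06 ± 0.400 FPKM in ZnO. The corepressor gene CBFA2T3 was at 7.20 ± 0.953 and 9.32 ± 1.88 FPKM. The groups of these 2 genes overlapped, and GFI1B, counted among the 11, was under the filter in controls and tested only through its ZnO level. TCF3 and LDB1 are active in many tissues, not in blood alone. For the other listed genes too, whole-embryo RNA does not show which cells held the transcripts. GATA1, LYL1, KLF1 and NFE2 were not analysed here.

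Of 12 genes of blood cell surface proteins, their ligands and iron uptake, 8 were tested. By mean, 5 were higher and 3 lower in ZnO, where 43.9% of all genes tested were higher. In limma, 0 passed the threshold (median log2 fold change 0.10, and -0.14 without ZnO 1). TFRC, the transferrin receptor, had 34.5, 30.6 and 23.6 FPKM in the control group and 49.5, 34.2 and 46.8 FPKM in ZnO, which overlapped by a narrow margin. KITLG, the ligand of KIT, had 7.54 ± 0.882 and 5.51 ± 1.99 FPKM, and the chemokine gene CXCL12 had 23.8 ± 1.55 and 21.0 ± 1.10 FPKM, with limma adjusted p of 0.943 and 0.962. These were the 2 of 8 genes lower in each ZnO library than in any control, where 5.89% of all genes tested were. The reverse held for 0 of 8, against 5.6%. CXCR4, the receptor of CXCL12, overlapped at 60.7 ± 23.4 and 48.8 ± 24.2 FPKM. Genes of white blood cells, singled out after their values were seen, fell under the filter of 1 FPKM. PTPRC, the pan-leukocyte marker CD45, was at 0.267 to 0.857 FPKM over the 6 libraries, CSF1R of macrophages at 0.140 to 0.446 FPKM, and IKZF1 of lymphoid cells at 0 to 0.185 FPKM. SPI1, a factor of myeloid cells, had 0.539 to 1.27 FPKM in controls and 0.319 to 1.60 FPKM in ZnO. The levels of PTPRC and SPI1 overlapped those of RUNX1 (0.578 to 2.98 FPKM).

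Most red cell genes tested had their highest level in ZnO 3. Of 15 tested, 11 were highest in ZnO 3, which was the highest library for 22% of all genes tested, and 7 were lowest in ZnO 1, which was the lowest library for 30.7% of all genes. The embryonic alpha-type globin gene HBZ had 498, 360 and 420 FPKM in the control group and 186, 371 and 826 FPKM in ZnO 1, 2 and 3. ZnO 1 and ZnO 3 were thus the outer libraries on either side of all controls, and the group means were near each other. The summed level of the 15 genes was 1294 to 1755 FPKM in the control group and 831, 1506 and 2909 FPKM in ZnO 1, 2 and 3. The carbonic anhydrase gene CA2 had 328 FPKM in ZnO 3 against 86.7 to 135 FPKM elsewhere, and FECH, the last enzyme of haem synthesis, 38.7 FPKM against 12.7 to 19.2 FPKM. SLC4A1, the anion exchanger of the red cell membrane, was highest in ZnO 1 at 16.0 FPKM. EPB41, a membrane skeleton gene, had 16.7 ± 1.01 FPKM in the control group and 19.4 ± 2.42 FPKM in ZnO. FECH had 14.3, 12.7 and 15.2 FPKM in the control group and 18.6, 19.2 and 38.7 FPKM in ZnO. FECH and EPB41 were the 2 of 15 genes with each ZnO library above each control, where 5.6% of all genes tested were so placed. The reverse held for 0 of 15, against 5.89%. Neither gene passed (limma adjusted p = 0.861 for FECH and 0.958 for EPB41). By mean, 6 of the 15 were higher and 9 lower in ZnO, where 43.9% of all genes tested were higher. Their median log2 fold change was -0.05 (0.26 without ZnO 1 and -0.17 without ZnO 3), with 0 past the threshold in limma. The part of a differing red cell content in the TAL1 and RUNX1 levels of ZnO 3 was not tested.

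**Figure D4:**
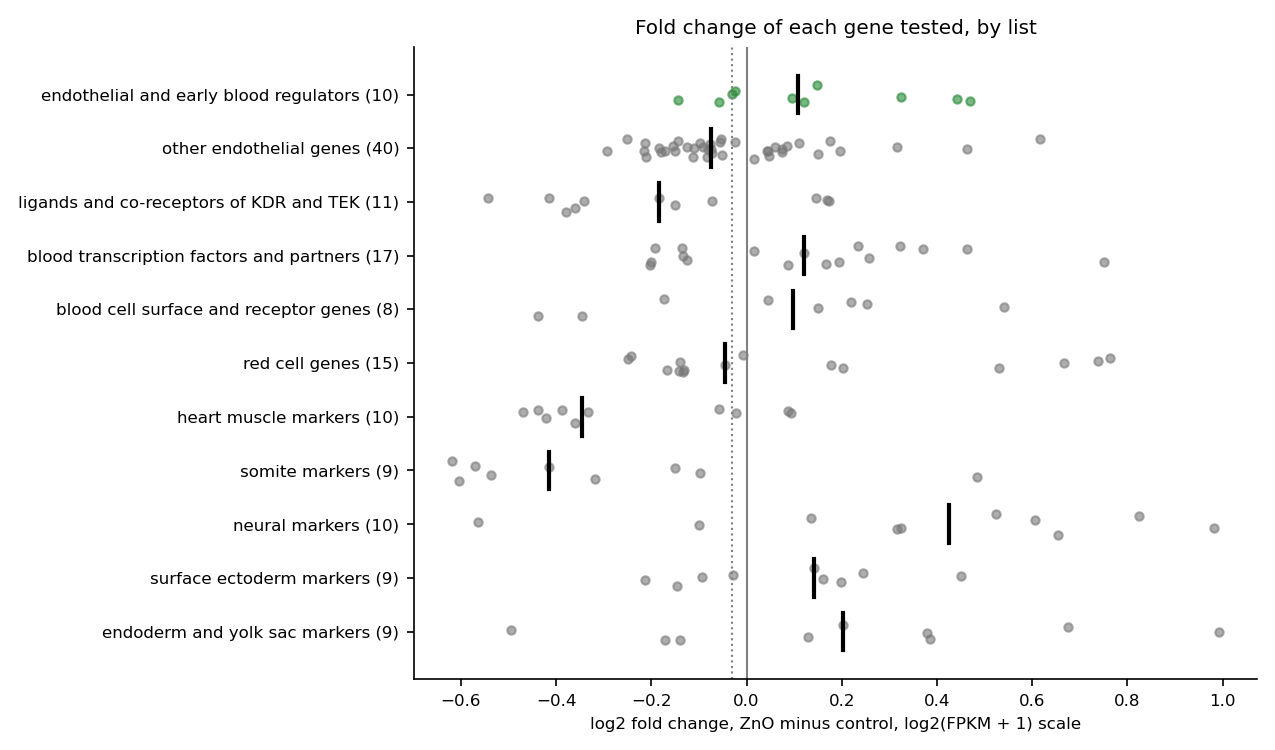
Horizontal axis: log2 fold change (ZnO mean less control mean of log2(FPKM + 1)) of each gene tested, by list, with the number tested in brackets and the list median as a black bar. The dotted line is the median of all genes tested, -0.03, and the median of the 10 regulators (green) is 0.11.

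The tested markers of other tissues that a whole embryo holds were present in all libraries. The median log2 fold change was -0.35 for 10 heart muscle markers, -0.42 for 9 somite markers, 0.42 for 10 neural markers, 0.14 for 9 surface ectoderm markers and 0.20 for 9 markers of endoderm and yolk sac. The somite median was -0.12 without ZnO 3, the surface ectoderm median 0.01 without control 2, and the heart muscle median -0.19 without control 2. In limma, 0 genes of these lists passed. An unadjusted p under 0.05 was seen for 2 heart muscle, 3 somite, 5 neural, 0 surface ectoderm and 2 endoderm markers (5.66% of all genes tested). All ZnO libraries lay below all controls for 3 heart muscle and 4 somite markers (5.89% of all genes). They lay above for 1 heart muscle, 2 neural and 2 endoderm markers (5.6% of all genes). A somite marker counted here was under the filter in ZnO and was tested only through its control level. The summed level of the neural markers was 77.8 to 129 FPKM in the control group and 122 to 163 FPKM in ZnO, and that of the heart muscle markers was 668 to 920.5 and 563 to 696 FPKM. The summed level of endoderm and yolk sac markers was 4016 to 9499 FPKM in the control group and 3508 to 8100 FPKM in ZnO, most of it from APOA1 and TTR, and varied by library in both groups. The part of these shifts in the levels of the 10 regulators was not tested.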

How the data were processed

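RNA of whole embryos was sequenced in 3 control and 3 ZnO libraries. The submitters' processing notes list HTSeq 0.6.1, TopHat2 2.0.12 and Bowtie2 2.2.3. The build they name is a mouse build, although 19704 of 24098 gene IDs match chicken genes in RefSeq GRCg7b. That table gave symbols and gene order only. The deposited values are taken as the authors' FPKM, because their steps gave whole reads (tolerance 0.005) for all 13311 genes searched, at depths of 18208501 to 19843561 reads. Strand use and annotation are not given in the sources used here.

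Genes averaging 1 FPKM or more were tested two-sided on log2(FPKM + 1) with limma 3.58.1 in R 4.3.3, with a mean-variance trend, at an adjusted p under 0.05. A fold change on this scale is understated for low genes. The fit was checked on simulated data. The members and lists were chosen with earlier results of these data known. Of 184 list entries, 163 matched by symbol. Named are all members, up to 4 genes with the smallest p in each other list, and the 3 nearest to KDR, except that only list values are given for other tissues. HBZ, KIT, MEF2C, paralogs, neighbours and white cell markers were named after their values were seen. Alternatives were a pseudocount of 0.1, 2 other filters, median-ratio scaling, limma-voom on recovered reads, a replicate block and leaving out each library.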

Additional observations from a re-analysis of the deposited data

How the results depend on the processing

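The count of genes past the threshold was 0 under the 6 alternatives that kept all libraries, and 0 to 4 when 1 library was left out, where the 4 appeared without ZnO 1 (MT4, MT3, HSPB9 and the unnamed gene ID 100498692, named after their values were seen). The 10 regulators were not among them, and 0 of 10 passed under all 12 alternatives. The direction of CLDN5, TAL1, RUNX1 and ERG was the same under all 12. RUNX1 entered the test only through ZnO 3 and stayed in the fit without ZnO 3, so its stable sign is no support. The 2 other filters and the replicate block leave the fold change of a gene unchanged, so the sign there was fixed in advance. For CLDN5, whose groups do not overlap, leaving out a library could not turn the sign either. Leaving out 1 library changed the sign for the others, with log2 fold changes of -0.11 to 0.26 for KDR, -0.24 to 0.12 for CDH5, -0.13 to 0.093 for LMO2, -0.031 to 0.18 for GATA2, -0.035 to 0.32 for FLI1 and -0.20 to 0.037 for TEK. RUNX1 was 0.86 in limma-voom on recovered reads, against 0.47 on the log2(FPKM + 1) scale, which flattens low values. The 20 genes named from the vascular, blood and red cell lists had the same direction under all 12. These genes were picked for the smallest p in the main fit, which favours a stable sign, so this is no support for their lists. The somite median was -0.12 without ZnO 3, and the surface ectoderm median 0.01 without control 2. With the replicate number as a block, 0 genes passed, and KDR was at 0.12, a value that the block could not change. Deviations of same-numbered libraries correlated at -0.03, -0.37 and 0.41, and 1 of 6 libraries correlated best with its own number. No consistent pairing by number was seen, and with 3 libraries per group this check is weak. With 66 to 318 reads, RUNX1 is the gene that depth limits most.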

Other observations

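SELP, the gene of the adhesion molecule P-selectin of endothelium and platelets, fell under the filter of 1 FPKM and entered no comparison above. It was singled out after its values were seen, as the listed gene under the filter whose groups did not overlap. It had 0.619, 0.432 and 0.476 FPKM in control 1, 2 and 3, and 1.45, 1.01 and 1.24 FPKM in ZnO 1, 2 and 3. Among all genes tested, 5.6% had each ZnO library above each control, and no share was counted for genes under the filter. In the limma fit with no filter the log2 fold change of SELP was 0.56 ± 0.11 SE with an adjusted p of 0.800, and it was not called. The log2(FPKM + 1) scale flattens levels this low.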
